A study of Mus musculus with 8 samples.

Results

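The 55 genes described here encode the enzymes that cut or cross-link extracellular matrix, together with the secreted inhibitors of those enzymes. They are all protein-coding rows of the deposited expression table whose symbol names a matrix metalloproteinase (Mmp, 22 genes), a tissue inhibitor of metalloproteinases (Timp, 4 genes), an Adamts protease (19 genes), an Adamts-like protein (Adamtsl, 5 genes) or a lysyl oxidase (Lox and Loxl, 5 genes), out of 54532 genes in the table. The rule reads the symbol and no measured value, and it was set with earlier results of these data known. RNA came from whole hearts of mouse pups at postnatal day 4, with 4 hearts in each of 2 groups. The control pups carried the genotype Mrps5 fl/+, and their littermates in the group called cHET carried Mrps5 fl/+;Myh6-Cre. All 8 hearts therefore had 1 floxed allele of Mrps5, the gene of a mitochondrial ribosomal protein. None of the pups was given a treatment. The Myh6 promoter drives Cre in cardiomyocytes, from late in embryonic life according to the labels, so that the other cells of the cHET hearts keep both alleles. There was no group with Cre and without the floxed allele, and an effect of Cre and an effect of the lost allele cannot be told apart.

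Most of these proteins work outside the cell. Matrix metalloproteinases are zinc enzymes that cut collagens, elastin and other matrix proteins. Most are secreted as inactive precursors, and some (Mmp14, Mmp15, Mmp16, Mmp17, Mmp24 and Mmp25) stay anchored in the cell membrane. The TIMPs bind the active site of metalloproteinases and block it. Adamts enzymes are secreted relatives with thrombospondin repeats: some trim the amino-terminal propeptide from procollagen, and others cut the proteoglycans versican and aggrecan. Adamts-like proteins share the repeats without the catalytic domain and bind microfibrils. Lysyl oxidases oxidise lysines of collagen and elastin, the first step in cross-linking the fibres. In the newborn heart the matrix of the valves, the great vessels and the myocardium is laid down and remodelled by several cell types, among them fibroblasts, endocardial cells and smooth muscle cells.

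The 8 libraries held 15490622 to 19234777 reads in genes, rebuilt from the deposited values. The unit throughout is FPKM (reads scaled to gene length and to a total the authors set for each library, which differed from its own sum). Each run of 4 values follows the labels' replicate numbers, controls 1 to 4 and then cHET 1 to 4. Mrps5 stood at 11.6, 6.27, 10.1 and 5.15 FPKM in controls and 6.84, 7.12, 6.995 and 7.68 FPKM in cHET, a mean of 8.27 ± 3.05 FPKM in controls and 7.16 ± 0.365 FPKM in cHET (SD, n = 4 each), and the groups did not separate (two-sided exact permutation test, p = 0.486, where 4 against 4 allows no p below 0.0286). Controls 2 and 4 lay below every cHET library, so the targeted gene checks the label of neither group in this tissue, in which cells without Cre also express it. Genes of the cardiomyocyte list summed to 17409 to 21289 FPKM in all 8 libraries. Some libraries stood apart on markers of other tissue: the brown fat gene Ucp1 was at 17.8, 16.7, 0.0387 and 0.149 FPKM in controls and 0.286, 6.56, 0 and 1.62 FPKM in cHET, and the atrial myosin light chain gene Myl7 at 2071, 2252, 2918 and 643 FPKM in controls and 2272, 3775, 69.0 and 2179 FPKM in cHET. Genes of the red cell list summed to 8418 FPKM in control 2 and to 1024 to 2758 FPKM in the other 7 libraries. The brown fat list summed to 230 and 222 FPKM in controls 1 and 2 and to 158 to 199 FPKM in the others. Its genes Fabp4, Cidea and Pparg did not set both of these controls apart. By Ucp1 and by this sum, controls 1 and 2 carried the most brown fat RNA. Control 2 carried the most red cell RNA, and cHET 3 had almost no atrial RNA. Their part in the results was not tested. Genes marking sex put 2 of the 4 controls and 1 of the 4 cHET pups as male.

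Of the 13 members with a mean under 0.1 FPKM, 8 belong to 1 cluster of Mmp genes. The 9 Mmp genes Mmp13, Mmp12, Mmp1b, Mmp3, Mmp10, Mmp8, Mmp27, Mmp20 and Mmp7 lie side by side on chromosome 9, at chr9:7272514-7699585 (GRCm38), within 427 kb. They include the collagenases Mmp13 and Mmp8, the stromelysins Mmp3 and Mmp10, the macrophage elastase Mmp12, matrilysin (Mmp7) and the tooth enamel protease Mmp20. All 9 together had 164 reads over the 8 libraries, against 78951 reads for the other 13 Mmp genes. The highest value of any of the 9 in any library was 0.337 FPKM. None of the 9 reached a mean of 1 FPKM, the level required here for a test, while 6 of the other 13 did. Mmp1b, Mmp7, Mmp10 and Mmp20 had no read in any of the 8 libraries. For a single library, no read allows a level of up to 0.0458 to 0.181 FPKM, the value of 3 reads (counting error only). The limit for the mean of the 8 libraries is lower and was not computed.

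The promoters of the cluster are shown because 7 of their 11 windows held a motif that none of the 28 windows of the other members held, within the bases searched. RefSeq promoter windows (GRCm38.p6) were found for 36 of the 55 members, as 39 windows, and the 250 bases before each transcription start were searched. The motif searched was TGANTCA, where N is any base, a loose form of the binding motif of the AP-1 transcription factors that reads the same on both strands. It was found in 7 of the 11 windows of the cluster (63.6%), in 0 of the 28 windows of the other members, and in 2217 of all 32851 promoter windows (6.75%). The match in Mmp20 was TGAATCA, and those in the other cluster genes with a match were TGAGTCA or TGACTCA. The TATA box letters TATAAA, searched on both strands, were found in 6 of the 11 cluster windows (54.5%), in 3 of the 28 windows of the other members (10.7%) and in 12.4% of all windows; the same 6 cluster windows held both motifs, as did 1.21% of all windows. The 100 bases before the start are printed 5′ to 3′ on the gene's own strand for 6 of the 7 genes with the first motif, which is in capitals.
Mmp13 promoter, chr9:7272414-7272513, plus strand: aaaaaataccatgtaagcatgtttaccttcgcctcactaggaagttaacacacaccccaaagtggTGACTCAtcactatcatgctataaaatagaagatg
Mmp12 promoter, chr9:7347274-7347373, plus strand: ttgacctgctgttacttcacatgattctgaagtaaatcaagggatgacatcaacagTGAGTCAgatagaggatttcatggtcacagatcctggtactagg
Mmp3 promoter, chr9:7445722-7445821, plus strand: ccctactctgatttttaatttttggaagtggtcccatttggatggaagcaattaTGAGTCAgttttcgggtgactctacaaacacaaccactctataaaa
Mmp10 promoter, chr9:7502242-7502341, plus strand: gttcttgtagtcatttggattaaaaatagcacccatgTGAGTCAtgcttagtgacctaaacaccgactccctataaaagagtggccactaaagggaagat
Mmp20 promoter, chr9:7628131-7628230, plus strand: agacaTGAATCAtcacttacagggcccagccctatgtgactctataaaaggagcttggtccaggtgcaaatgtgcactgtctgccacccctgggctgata
Mmp7 promoter, chr9:7691990-7692089, plus strand: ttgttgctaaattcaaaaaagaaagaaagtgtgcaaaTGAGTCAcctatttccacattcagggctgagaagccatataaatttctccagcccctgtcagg
The capitals begin 35 bases before the start in Mmp13, 44 in Mmp12, 46 in Mmp3, 63 in Mmp10 and in Mmp7, and 95 in Mmp20. In Mmp1b, the seventh gene, they would begin at 93 on the minus strand. Mmp8 and Mmp27 have no match in their windows. The RefSeq start used for Mmp12 lies inside the gene as the table gives it. A match is a run of letters and not a measured binding site.

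**Figure D1:**
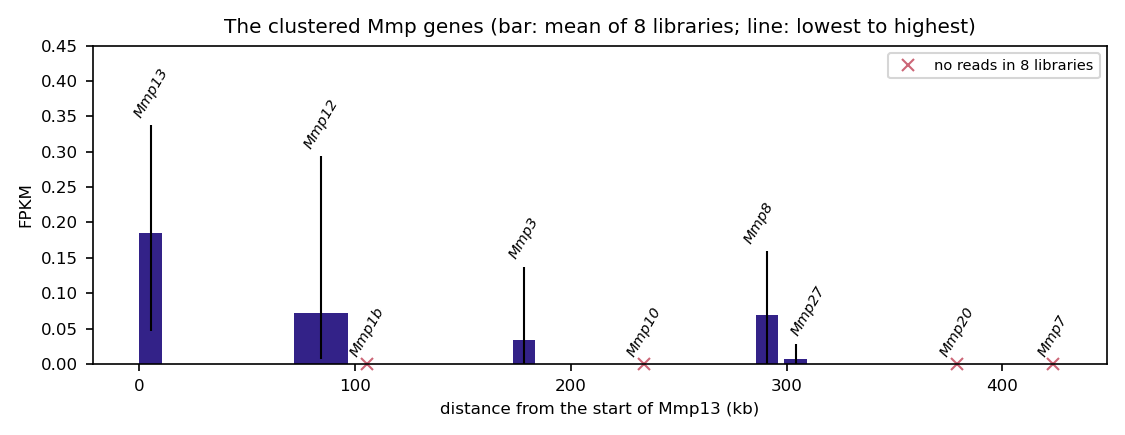
Level of the 9 Mmp genes of the cluster, drawn by distance in kb from the start of Mmp13. Bars give the mean FPKM of 8 libraries (bar width is the gene body), lines run from the lowest to the highest library, and crosses mark the 4 genes with no reads; the axis ends at 0.45 FPKM, and Mmp13 has the highest mean, 0.185 FPKM.

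Within the cluster, Mmp12 was the only member whose groups did not overlap. It had 33, 11, 8 and 6 reads in controls 1 to 4 and 3, 1, 2 and 2 reads in cHET 1 to 4, which is 58 against 8 reads, or 0.294, 0.0941, 0.0701 and 0.0506 FPKM in controls and 0.0242, 0.00693, 0.0172 and 0.0159 FPKM in cHET. Every control lay above every cHET library, and control 1 alone held 33 of the 58 control reads. Of the 20 members with a mean above 0 and under 1 FPKM, Mmp12 was the only 1 whose groups did not overlap (5% of them); over all 16646 genes at such levels the groups did not overlap for 2.4% in either direction and for 1.53% with cHET lower. Genes of the macrophage list, which mark the cells for which Mmp12 is best known, summed to 126, 182, 92.8 and 89.0 FPKM in controls 1 to 4 and to 78.8, 107, 69.3 and 74.9 FPKM in cHET 1 to 4. All 9 of them were tested and had a log2 fold change below 0, 3 at an unadjusted p under 0.05 and none after adjustment, and none of the 9 was at 0; the part of macrophage number in the Mmp12 reads was not tested. A median below 0 was shared by every marker list read here, as given with Timp1 below. In bulk tissue, fewer cells of a type and less RNA per cell cannot be told apart. Mmp13 stood at 0.337, 0.324, 0.285 and 0.0685 FPKM in controls and 0.153, 0.0938, 0.0466 and 0.172 FPKM in cHET, with control 4 among the cHET libraries, and Mmp8, Mmp3 and Mmp27 had 23, 8 and 2 reads in all.

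The levels of the members spanned the whole range from no reads to 52.9 FPKM (Mmp2 in control 3). Of the 55 members, 31 had a mean of at least 1 FPKM and entered the test, 11 had a mean of 0.1 to 1, and 13 lay under 0.1. By family, 6 of 22 Mmp, 3 of 4 Timp, 15 of 19 Adamts, 3 of 5 Adamtsl and 4 of 5 lysyl oxidase genes were tested. At the edge of the filter, Adamts17 (mean 1.25 FPKM) lay just inside and Adamtsl3 (0.858) just outside. Summed over all members, the libraries held between 330.4 FPKM (cHET 3) and 434 FPKM (control 3). Of the mean sum, the Mmp genes gave 34.7%, the Adamts genes 21.8%, the lysyl oxidases 19.8%, the TIMPs 17.4% and the Adamts-like genes 6.30%. Timp2, Mmp2, Mmp15 and Loxl1 alone made 41.9% of it. Levels are per length and can be compared between genes.

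**Figure D2:**
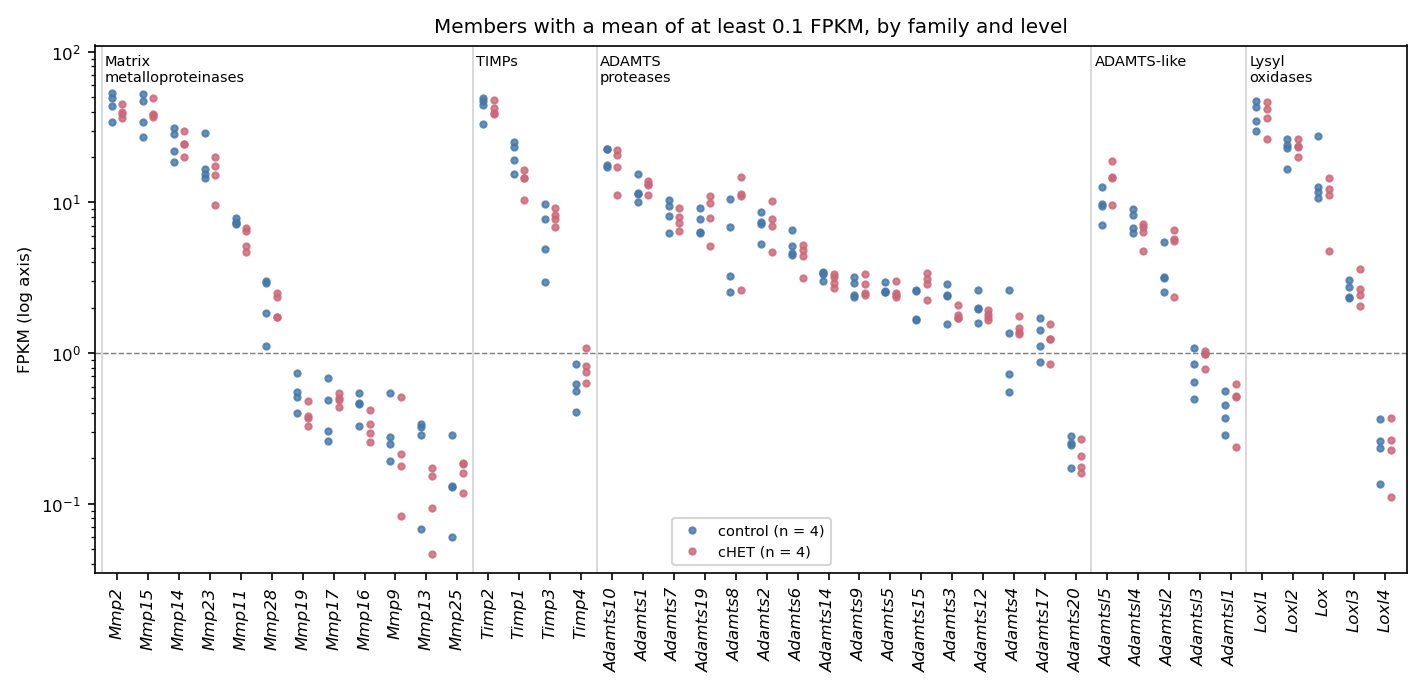
FPKM (log axis) of the 42 members with a mean of at least 0.1 FPKM, 1 point per library, controls in blue and cHET in red, ordered by mean within each family; the dashed line is the mean of 1 FPKM required for the test. Mmp2, Timp2 and Loxl1 lead their families with highest values of 52.9, 49.4 and 47.3 FPKM, Adamts10 leads the Adamts genes with 22.7 FPKM, and the points of the groups overlap for every gene shown except Mmp11.

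None of the 31 tested members passed the test between cHET and control. The test was limma on log2(FPKM + 1) with Benjamini-Hochberg adjustment over all 13029 genes, and it called 3 genes in all (0.023%), 3 higher in cHET (0.023%) and 0 lower (0%). The smallest adjusted p among the members was 0.44, shared by Mmp11 and Timp1. At an unadjusted p under 0.05 there were 4 members (12.9% of 31) against 8.95% of all genes tested: Adamtsl5 and Adamts15 with higher values in cHET, where the share of all genes is 5.03%, and Mmp11 and Timp1 with lower values, where it is 3.92%. The groups did not overlap for 1 member, Mmp11 (3.23%), against 4.74% of all genes (2.74% higher and 2% lower in cHET). A fit on rebuilt reads with voom also called 0 members. Log2 fold changes were above 0 for 13 members and below 0 for 18, where all genes split 52.1% to 47.9%, and their median was -0.032, against 0.0086 over all genes. With values rescaled to TPM, which moved the median of all genes to 0.10, 19 members were above 0 and 12 below. With the threshold lowered to a mean of 0.1 FPKM, 42 members were tested and 0 called, against 2 of 20107 genes (0.00995%). Of the 42, 3 (7.14%) had an unadjusted p under 0.05, against 8.03% of all genes in that fit: Adamtsl5, Mmp11 and Timp1.

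The members had a wider spread within groups than the typical gene. The median SD of log2(FPKM + 1) within groups was 0.236 over the 31 members and 0.171 over all genes tested. From the lowest to the highest library the members spanned a median of 0.813 on that scale, against 0.522 for all genes. These are descriptions of the 8 libraries, and no test of the difference was made.

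**Figure D3:**
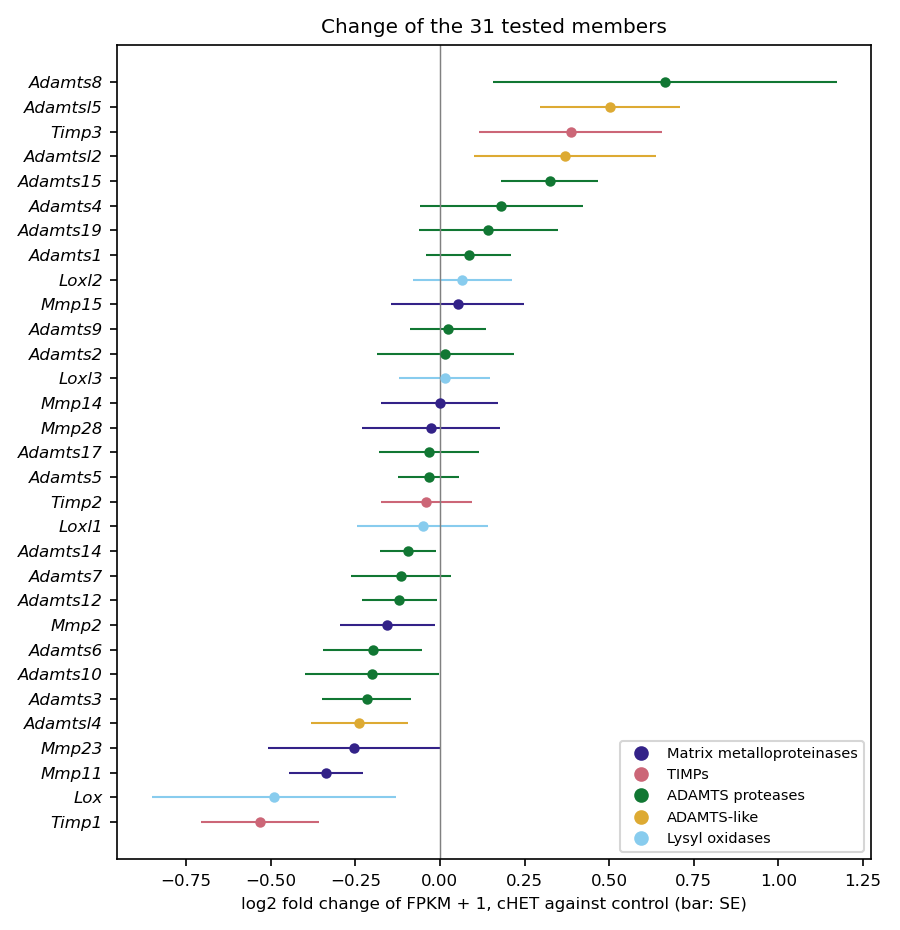
Log2 fold change (cHET minus control, on log2(FPKM + 1)) of the 31 tested members, in order of size and coloured by family; horizontal bars are the SE from limma, and the vertical line marks 0. The points run from -0.53 (Timp1) to 0.66 (Adamts8), 13 above and 18 below 0, and no member passed the adjusted test.

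Timp1 had the lowest log2 fold change of the 31. Timp1 (ENSMUSG00000001131, chrX:20870166-20874735, plus strand, inside Syn1, which runs on the opposite strand) encodes a secreted inhibitor of most metalloproteinases that is induced in injured and inflamed tissue. It stood at 23.4, 25.2, 19.1 and 15.3 FPKM in controls and 14.6, 14.5, 10.4 and 16.4 FPKM in cHET, which is 20.8 ± 4.44 FPKM in controls and 13.99 ± 2.52 FPKM in cHET (SD, n = 4 each). Controls 1 to 3 lay above every cHET library and control 4 lay below cHET 4. The log2 fold change was -0.53 (SE 0.174, adjusted p = 0.440), with an unadjusted p of 0.013. Without controls 1 and 2 it was -0.29, and over all alternatives it ran from -0.66 to -0.29, with adjusted p from 0.243 to 0.85. The epicardial and mesothelial marker list had lower values in cHET too: its 8 genes, all tested and none at 0, summed to 61.9 to 109 FPKM in controls and 41.8 to 61.3 FPKM in cHET, 7 of 8 with a log2 fold change below 0 and none past the adjusted test. The macrophage sums given with Mmp12 had the same direction. Every marker list read here had a median log2 fold change below 0, from -0.038 (smooth muscle and pericyte) to -0.99 (atrial). The medians were -0.54 for the epicardial and mesothelial list, -0.39 for macrophages and -0.18 for cardiomyocytes. The part of any of these lists in Timp1 was not tested.

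No other inhibitor had an unadjusted p under 0.05. Timp2, which blocks Mmp2 and also takes part in its activation by Mmp14, was the most abundant member of all, 33.4, 44.3, 47.2 and 49.4 FPKM in controls and 38.8, 48.0, 39.2 and 42.3 FPKM in cHET. Its groups overlapped almost wholly, and its log2 fold change was -0.040 (SE 0.134, adjusted p = 0.930). Timp3, which binds to the matrix and also inhibits Adamts enzymes, stood at 4.88, 2.99, 7.71 and 9.78 FPKM in controls and 6.85, 7.77, 9.12 and 8.22 FPKM in cHET. Controls 1 and 2 were below every cHET library and control 4 was the highest of all, so the controls spread over a range that holds all 4 cHET values. Its log2 fold change was 0.39 (SE 0.272, adjusted p = 0.675), and without controls 1 and 2 it was -0.11, on the other side of 0. Timp4 stayed under the filter at 0.608 ± 0.179 FPKM in controls and 0.821 ± 0.190 FPKM in cHET (SD, n = 4 each). Timp2 made 62.9% of the summed TIMP level, Timp1 25.5%, Timp3 10.5% and Timp4 1.05%, and the TIMP sum was 71.3 ± 5.91 FPKM in controls and 64.8 ± 5.53 FPKM in cHET (SD, n = 4 each). Timp1, Timp3 and Timp4 overlap Syn1, Syn3 and Syn2, synapsin genes that run on the opposite strand and had means of 0.171, 0.072 and 0.343 FPKM.

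Mmp11 was the only tested member whose groups did not overlap. Mmp11 (stromelysin-3, ENSMUSG00000000901, chr10:75923222-75936496, minus strand) is a metalloproteinase that is activated inside the cell and is known from tissue remodelling. It stood at 7.90, 7.44, 7.28 and 7.23 FPKM in controls and 6.51, 6.72, 4.66 and 5.14 FPKM in cHET, which is 7.46 ± 0.307 FPKM in controls and 5.76 ± 1.01 FPKM in cHET (SD, n = 4 each). All 4 controls lay within 7.23 to 7.90 FPKM, and all 4 cHET libraries lay below them, with cHET 3 and cHET 4 the lowest. The log2 fold change was -0.34 (SE 0.110, adjusted p = 0.440), with an unadjusted p of 0.013. It kept its sign in all 21 alternatives, from -0.40 to -0.26, with adjusted p from 0.234 to 0.927. Its gene overlaps Chchd10, a mitochondrial protein gene with far more reads, at 191 ± 27.0 FPKM in controls and 194 ± 19.2 FPKM in cHET (SD, n = 4 each; log2 fold change 0.03, adjusted p = 0.949). Whether reads were counted by strand is not given in the sources used here, so the separation of the 2 genes rests on the authors' counting.

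The Mmp genes with the highest levels act at the cell surface or on denatured collagen. Mmp2, gelatinase A, which cuts denatured collagen and basement membrane collagen, stood at 34.1, 43.6, 52.9 and 49.3 FPKM in controls and 38.5, 45.3, 36.1 and 39.8 FPKM in cHET. Its controls ran from below to above all cHET values, and the log2 fold change was -0.16 (SE 0.141, adjusted p = 0.729). Mmp14, the membrane enzyme that activates Mmp2, stood at 18.6, 22.03, 31.2 and 28.3 FPKM in controls and 24.5, 30.0, 20.0 and 24.6 FPKM in cHET, and its log2 fold change was -0.00097 (SE 0.173, adjusted p = 0.998). For Mmp2 and Mmp14 alike control 1 was the lowest library and control 3 the highest. Mmp15, another membrane-anchored enzyme, stood at 34.1, 27.4, 47.1 and 52.4 FPKM in controls and 37.0, 38.2, 49.2 and 38.5 FPKM in cHET. Control 2 was the lowest, control 4 the highest, and cHET 3 stood apart from the other 3 cHET libraries. Its log2 fold change was 0.052 (SE 0.197, adjusted p = 0.938). Mmp23 stood at 16.6, 28.9, 15.5 and 14.5 FPKM in controls and 17.5, 20.0, 9.58 and 15.2 FPKM in cHET, with control 2 highest and cHET 3 lowest, and a log2 fold change of -0.25 (SE 0.255, adjusted p = 0.753). It was -0.039 without control 2 and -0.053 without cHET 3. Mmp28, epilysin, stood at 1.84, 1.12, 3.01 and 2.92 FPKM in controls and 1.74, 2.36, 2.51 and 1.74 FPKM in cHET, with controls at both ends of the range and a log2 fold change of -0.025 (SE 0.204, adjusted p = 0.973); it overlaps 1700020L24Rik, a gene with a higher mean. Under the filter, Mmp19, Mmp17, Mmp16, Mmp9 and Mmp25 had means of 0.47, 0.465, 0.388, 0.281 and 0.157 FPKM. The gelatinase Mmp9, a product of leukocytes among other cells, was highest in control 1 (0.546 FPKM) and cHET 3 (0.51 FPKM) and lowest in cHET 1 (0.0826 FPKM). Outside the cluster, Mmp21 and Mmp24 had means of 0.0345 and 0.0158 FPKM.

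**Figure D4:**
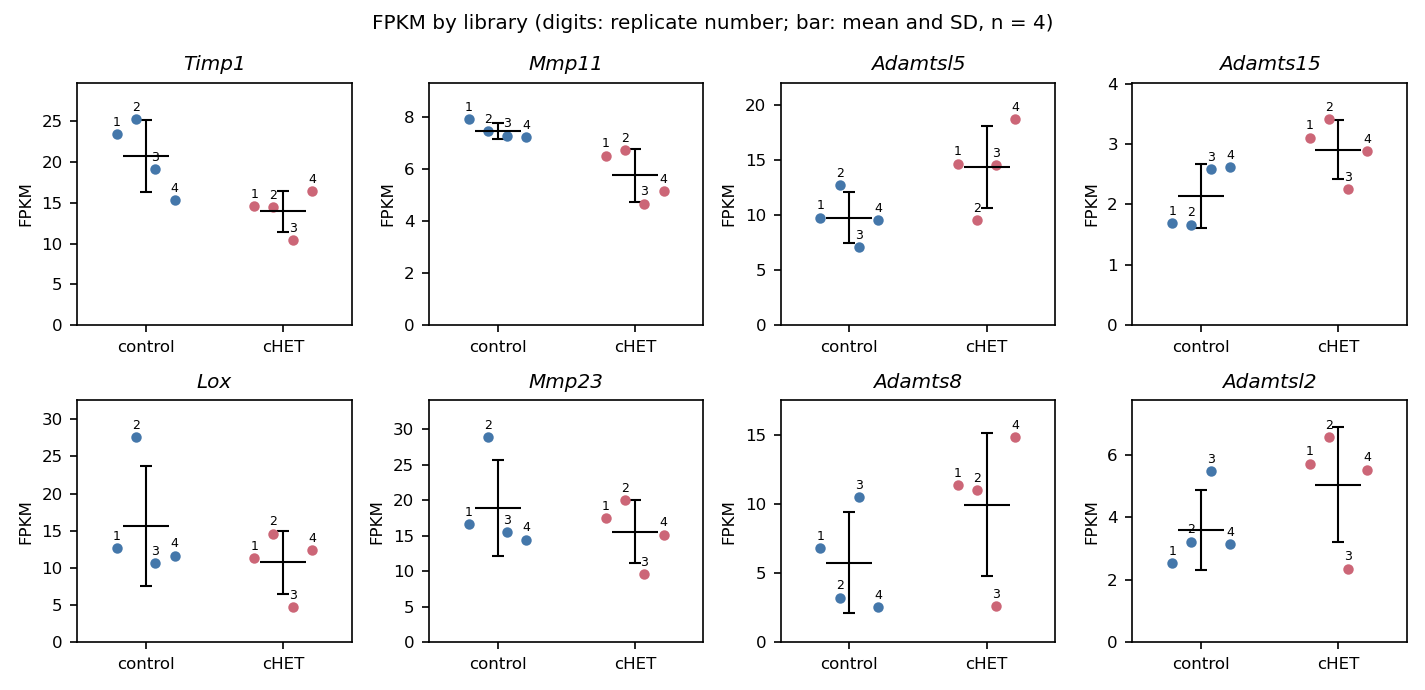
FPKM of 8 members in each library, 1 panel per gene, controls in blue and cHET in red; digits are replicate numbers, black bars the group mean and SD (n = 4), and each vertical axis starts at 0. Mmp11 is the panel whose groups do not overlap, and Lox shows control 2 (27.6 FPKM) above and cHET 3 (4.78 FPKM) below all other libraries.

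The summed level of the Adamts-like genes was 22.5, 23.1, 22.3 and 20.8 FPKM in controls 1 to 4 and 29.1, 24.3, 24.6 and 30.6 FPKM in cHET 1 to 4, a mean of 22.2 ± 0.958 against 27.1 ± 3.21 FPKM (SD, n = 4 each). Every cHET sum lay above every control sum, while the groups overlapped for each of the 5 genes taken alone. This was the only family sum that separated the groups: those of the Mmp, Timp, Adamts and lysyl oxidase genes overlapped. Adamtsl5 alone had a mean of 12.1 FPKM, where the family's mean sum was 24.7 FPKM. Among single genes tested, 4.74% had groups that did not overlap, a share that does not apply to sums. No p is given for a sum over chosen genes. Adamtsl5 (ENSMUSG00000043822, chr10:80339110-80348412, minus strand), a microfibril-binding protein, was the strongest gene of the family and stood at 9.78, 12.7, 7.07 and 9.53 FPKM in controls and 14.7, 9.55, 14.5 and 18.7 FPKM in cHET, which is 9.78 ± 2.32 FPKM in controls and 14.4 ± 3.75 FPKM in cHET (SD, n = 4 each). The libraries cHET 1, 3 and 4 lay above all controls, and cHET 2 lay among them. Its log2 fold change was 0.50 (SE 0.206, adjusted p = 0.536), with an unadjusted p of 0.0365, and ran from 0.37 to 0.72 over the alternatives (adjusted p 0.221 to 0.927). Adamtsl2, which binds fibrillin and latent TGF-beta binding protein, stood at 2.53, 3.21, 5.47 and 3.15 FPKM in controls and 5.71, 6.56, 2.36 and 5.52 FPKM in cHET. Control 3 and cHET 1, 2 and 4 formed its upper values, cHET 3 was the lowest, and the log2 fold change was 0.37 (SE 0.270, adjusted p = 0.684), or 0.63 without cHET 3. Adamtsl4, known for its place on the zonule fibres of the eye, had lower values in cHET, at 9.09, 6.27, 8.30 and 6.78 FPKM in controls and 7.23, 6.86, 6.38 and 4.75 FPKM in cHET, with cHET 4 the lowest and a log2 fold change of -0.24 (SE 0.143, adjusted p = 0.643). Adamtsl3 and Adamtsl1 had means of 0.858 and 0.446 FPKM.

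Among the versican- and aggrecan-cutting Adamts genes, Adamts15 and Adamts8 lie side by side on chromosome 9 and both had higher means in cHET. Adamts15 (ENSMUSG00000033453, chr9:30899155-30922452, minus strand) stood at 1.68, 1.66, 2.59 and 2.62 FPKM in controls and 3.10, 3.41, 2.25 and 2.88 FPKM in cHET, which is 2.14 ± 0.538 FPKM in controls and 2.91 ± 0.492 FPKM in cHET (SD, n = 4 each). Controls 1 and 2 were the lowest libraries, and cHET 3 lay below controls 3 and 4. The log2 fold change was 0.32 (SE 0.144, adjusted p = 0.557), with an unadjusted p of 0.0495, and it was 0.11 without controls 1 and 2 (0.11 to 0.50 over the alternatives, adjusted p 0.295 to 0.934). Adamts8 (chr9:30942562-30963838) stood at 6.82, 3.25, 10.5 and 2.53 FPKM in controls and 11.4, 11.02, 2.62 and 14.9 FPKM in cHET, which is 5.78 ± 3.67 FPKM in controls and 9.96 ± 5.19 FPKM in cHET (SD, n = 4 each). Its libraries fell into a low set (controls 2 and 4 and cHET 3) and a high set (control 3 and cHET 1, 2 and 4), with control 1 between. The log2 fold change was 0.66 (SE 0.508, adjusted p = 0.695), the highest of the 31, and 1.13 without cHET 3. Adamts1, which cuts versican in the trabeculated heart, stood at 10.1, 11.5, 15.5 and 11.5 FPKM in controls and 13.3, 13.0, 11.2 and 13.8 FPKM in cHET, with a log2 fold change of 0.085 (SE 0.126, adjusted p = 0.824). Adamts5, an aggrecanase of the developing valves, stood at 2.57, 2.97, 2.53 and 2.55 FPKM in controls and 3.02, 2.42, 2.35 and 2.51 FPKM in cHET, and Adamts9, which also cuts versican, at 2.43, 2.36, 2.94 and 3.19 FPKM in controls and 2.49, 2.42, 3.37 and 2.89 FPKM in cHET. Both stayed within a narrow range in which the groups overlapped, with log2 fold changes of -0.032 (SE 0.0900, adjusted p = 0.913) and 0.023 (SE 0.113, adjusted p = 0.954). Adamts4, another aggrecanase, stood at 0.723, 0.553, 1.36 and 2.63 FPKM in controls and 1.39, 1.33, 1.46 and 1.76 FPKM in cHET, with controls at both ends and a log2 fold change of 0.18 (SE 0.240, adjusted p = 0.804), which was 0.017 without control 2 and 0.43 without control 4. Adamts20 had a mean of 0.22 FPKM.

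None of the procollagen-trimming enzymes had an unadjusted p under 0.05. Adamts2, which removes the amino-terminal propeptide of fibrillar procollagens, stood at 5.33, 7.47, 8.70 and 7.20 FPKM in controls and 6.98, 10.2, 4.72 and 7.75 FPKM in cHET, with cHET 2 highest and cHET 3 lowest. Its log2 fold change was 0.016 (SE 0.201, adjusted p = 0.983). Adamts3, which has the same activity and also takes part in the activation of the lymphatic growth factor Vegfc, stood at 2.44, 1.56, 2.40 and 2.88 FPKM in controls and 1.72, 1.72, 2.10 and 1.78 FPKM in cHET. Controls 1, 3 and 4 lay above all cHET libraries and control 2 below them, with a log2 fold change of -0.22 (SE 0.130, adjusted p = 0.643). Adamts14, the remaining enzyme of this kind, stood at 3.48, 3.35, 3.01 and 3.40 FPKM in controls and 2.70, 2.92, 3.34 and 3.19 FPKM in cHET, with a log2 fold change of -0.094 (SE 0.0835, adjusted p = 0.725).

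The other Adamts genes are known from cartilage, vessels and microfibrils. Adamts10, which is tied to fibrillin microfibrils, was the strongest Adamts gene, at 22.7, 22.6, 17.2 and 17.8 FPKM in controls and 22.2, 20.5, 11.1 and 17.1 FPKM in cHET, with cHET 3 the lowest and a log2 fold change of -0.20 (SE 0.198, adjusted p = 0.749), which was -0.0048 without cHET 3. Its close relative Adamts6 stood at 6.52, 4.45, 4.63 and 5.16 FPKM in controls and 5.23, 4.82, 4.42 and 3.18 FPKM in cHET, with cHET 4 lowest and a log2 fold change of -0.20 (SE 0.146, adjusted p = 0.686), and Adamts17, of the same microfibril group, at 0.879, 1.11, 1.43 and 1.70 FPKM in controls and 1.24, 1.57, 1.24 and 0.846 FPKM in cHET, with a log2 fold change of -0.032 (SE 0.148, adjusted p = 0.951). Adamts7 and Adamts12, which cut the cartilage protein Comp, stood at 9.42, 6.31, 10.3 and 8.07 FPKM in controls and 8.05, 9.14, 7.32 and 6.46 FPKM in cHET and at 1.59, 1.98, 1.97 and 2.63 FPKM in controls and 1.66, 1.81, 1.93 and 1.72 FPKM in cHET. Their log2 fold changes were -0.11 (SE 0.148, adjusted p = 0.802) and -0.12 (SE 0.112, adjusted p = 0.735), and the groups overlapped for both. Adamts19, a gene of heart valve development, stood at 7.74, 6.28, 9.25 and 6.37 FPKM in controls and 7.86, 10.98, 5.15 and 9.93 FPKM in cHET. Its highest libraries were cHET 2, cHET 4 and control 3, cHET 3 was the lowest, and the log2 fold change was 0.14 (SE 0.205, adjusted p = 0.820). Adamts16, Adamts18 and Adamts13, the last of which cuts von Willebrand factor in blood, had means of 0.0436, 0.0146 and 0.01 FPKM.

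Of the lysyl oxidases, Loxl1 was the most abundant and Lox the most variable. Loxl1, which is needed for elastic fibres, stood at 30.0, 47.3, 43.3 and 34.8 FPKM in controls and 36.1, 46.7, 26.5 and 41.5 FPKM in cHET, with control 2 highest, cHET 3 lowest and a log2 fold change of -0.050 (SE 0.194, adjusted p = 0.938). Loxl2, which cross-links basement membrane collagen, stood at 16.5, 23.0, 26.4 and 24.2 FPKM in controls and 19.9, 23.5, 23.7 and 26.5 FPKM in cHET, with control 1 lowest and a log2 fold change of 0.066 (SE 0.146, adjusted p = 0.892). Lox itself stood at 12.7, 27.6, 10.6 and 11.7 FPKM in controls and 11.3, 14.6, 4.78 and 12.4 FPKM in cHET, which is 15.7 ± 8.02 FPKM in controls and 10.8 ± 4.23 FPKM in cHET (SD, n = 4 each). Control 2 was far above every other library and cHET 3 far below, and the other 6 lay between 10.6 and 14.6 FPKM. The log2 fold change was -0.49 (SE 0.361, adjusted p = 0.686); without control 2 it was -0.20 and without cHET 3 it was -0.18. Loxl3 stood at 2.31, 3.07, 2.34 and 2.76 FPKM in controls and 2.68, 3.60, 2.04 and 2.41 FPKM in cHET, with a log2 fold change of 0.014 (SE 0.135, adjusted p = 0.976), and overlaps the stronger Htra2. Loxl4 had a mean of 0.246 FPKM.

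Single libraries stood out across the members. The library cHET 3 was the lowest of the 8 for 11 of the 31 members (35.5%), against 12.2% of all genes tested. These 11 were Loxl1, Lox, Loxl3, Mmp23, Mmp11, Timp1, Adamts2, Adamts5, Adamts10, Adamts19 and Adamtsl2. The elastic fibre genes Eln (elastin), Fbln5 and Mfap4 had their lowest value in the same library, with Eln at 211, 609, 276 and 275 FPKM in controls and 248, 337, 60.6 and 294 FPKM in cHET, Fbln5 at 13.1, 33.5, 11.5 and 11.5 FPKM in controls and 12.6, 14.5, 4.02 and 13.99 FPKM in cHET and Mfap4 at 57.5, 94.5, 57.3 and 44.3 FPKM in controls and 59.5, 80.9, 17.4 and 60.8 FPKM in cHET. These 3 genes and Lox, Loxl1, Mmp23 and Timp1 also shared their highest library, control 2. Fbln5 and Mfap4 were picked for this pattern from the elastic fibre and microfibril list described below. Not all of that list had it: Fbn1, Fbn2, Efemp2, Emilin1, Emilin2 and Ltbp4 had their lowest value in another library. Emilin2 had its highest in cHET 3 (40.5 FPKM). The genes of the fibroblast list (10 of 10 tested, none at 0) summed to 559 FPKM in cHET 3 and to 641 to 941 FPKM in the other 7 libraries, and those of the atrial list (5 of 5 tested, none at 0) to 242 FPKM in cHET 3 and to 1484 to 5302 FPKM in the others. The part of atrial or fibroblast content in these values was not tested. Without cHET 3, 0 of the 31 members passed the test and 5 (16.1%) had an unadjusted p under 0.05, against 6.12% of all genes in that fit. Other single libraries moved the log2 fold change of Adamts3 to -0.34 and of Timp3 to 0.13 (without control 2), of Adamts6 to -0.079 and of Adamtsl4 to -0.13 (without cHET 4), and of Mmp2 to -0.072 (without control 3).

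Control 2 was the lowest library for 8 members (25.8%) against 23.7% of all genes: Mmp15, Mmp28, Timp3, Adamts3, Adamts4, Adamts7, Adamts9 and Adamts15. Control 1 was the lowest for 6 (19.4%) against 17% of all genes: Mmp2, Mmp14, Timp2, Loxl2, Adamts1 and Adamts12. These shares lay near those of all genes. Control 2 was the highest for 4 members (12.9%), against 22.5% of all genes, and control 4 for 7 members (22.6%), against 12.6%. Controls 1 and 2 had summed FPKM over all genes of 450265 and 467217, against 353291 to 392047 in the other 6 libraries. Without these 2 libraries, 8 members had a log2 fold change above 0 and 23 below, and 0 of 31 passed the test. An unadjusted p under 0.05 was found for 4 (12.9%), against 8.52% of all genes in that fit.

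A set of 4 libraries recurred among the Adamts genes, a pattern picked out after the values were seen. Control 3 and cHET 1, 2 and 4 were the 4 highest libraries for Adamts1, Adamts8, Adamts19 and Adamtsl2, which is 4 of 31 members (12.9%), against 167 of 13029 genes (1.28%). Among 88 tested genes of the matrix lists described next, 4 had it (4.55%): Tnc, Thbs1, Adam22 and P4ha3. Tenascin C (Tnc), a matrix glycoprotein, stood at 5.06, 9.49, 10.7 and 7.82 FPKM in controls and 10.97, 14.01, 5.05 and 12.9 FPKM in cHET. Of the 4 libraries, 1 is a control and 3 are cHET, so the pattern follows the groups only in part. The log2 fold changes of the 4 members that had it ran from 0.085 (Adamts1) to 0.66 (Adamts8).

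**Figure D5:**
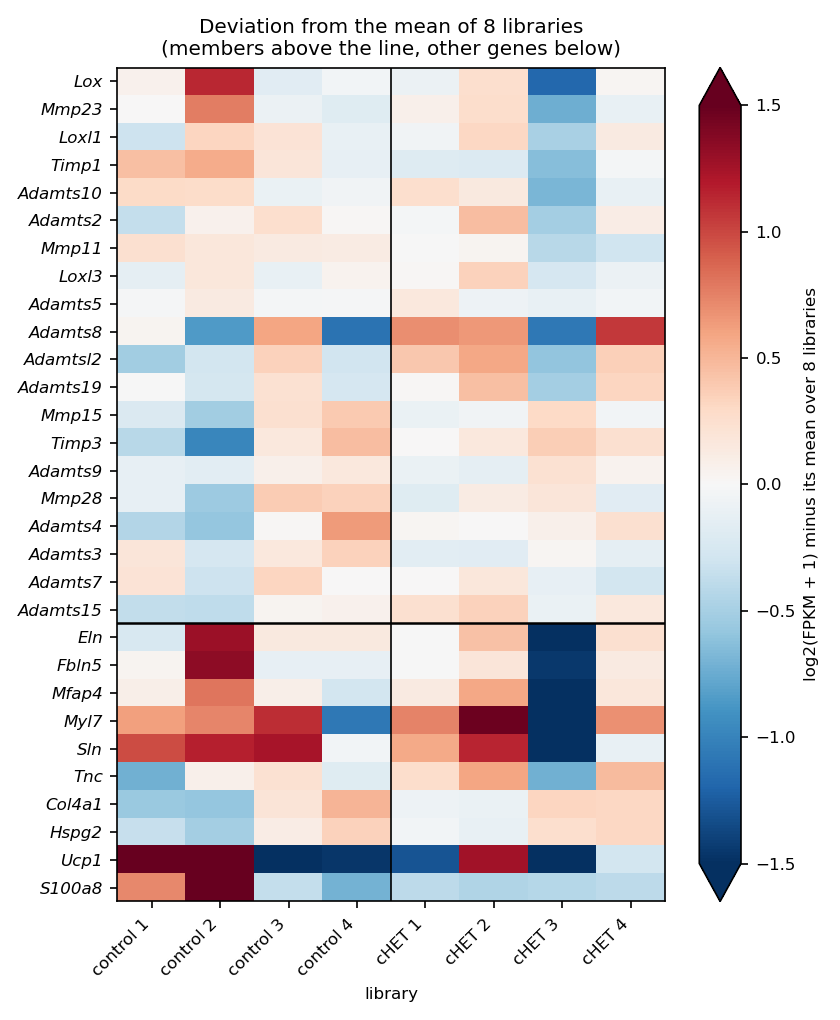
Deviation of each library (columns) from the gene's mean over the 8 libraries, on log2(FPKM + 1), for 20 tested members (rows above the line) and 10 genes of the matrix and marker lists (rows below it); red is above and blue below the mean, and colours are capped at 1.5. The rows were chosen by their pattern: the members are the 11 lowest in cHET 3, the 8 lowest in control 2, and Adamts8. The other tested members are not drawn. The column of cHET 3 is blue from Lox to Adamts10 and again for Eln, Fbln5, Mfap4 and Myl7, and Adamts8 and Adamtsl2 are red in control 3 and cHET 1, 2 and 4.

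The substrates and partners of these enzymes gave no called gene either. Lists of matrix genes were read beside the members, and of their 88 tested genes 0 passed the adjusted test and 9 had an unadjusted p under 0.05 (10.2%, against 8.95% of all genes tested). The elastic fibre and microfibril list had 2 genes with a log2 fold change above 0 and 15 below, of 17 tested, with a median of -0.18 against 0.0086 for all genes. The fibroblast marker list had 0 above and 10 below 0, with a median of -0.19, and its part in the elastic fibre values was not tested. As given with Timp1, every marker list read here had a median below 0. The latent TGF-beta binding protein gene Ltbp1 was at 6.82 ± 0.923 FPKM in controls and 4.76 ± 0.642 FPKM in cHET (SD, n = 4 each; log2 fold change -0.44, adjusted p = 0.348), and its groups did not overlap. Efemp1, an elastic fibre protein of the fibulin family, was at 4.69 ± 1.93 FPKM in controls and 2.23 ± 0.805 FPKM in cHET (SD, n = 4 each; log2 fold change -0.80, adjusted p = 0.430), and these 2 were the list's genes with an unadjusted p under 0.05. The log2 fold change of Eln was -0.67 (adjusted p = 0.711) and that of Ltbp4 -0.16 (adjusted p = 0.695). As given above, control 2 was the highest and cHET 3 the lowest library for Eln, Fbln5 and Mfap4.

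The regulators of matrix proteolysis (20 of 23 tested) had 6 genes above 0 and 14 below, with a median of -0.049, and 2 with an unadjusted p under 0.05, both lower in cHET. These were the lysosomal proteases Ctss, at 10.4 ± 3.78 FPKM in controls and 6.19 ± 1.65 FPKM in cHET (SD, n = 4 each; log2 fold change -0.64, adjusted p = 0.486), and Ctsk, at 12.1 ± 1.39 FPKM in controls and 9.84 ± 1.31 FPKM in cHET (SD, n = 4 each; log2 fold change -0.27, adjusted p = 0.539). Ctss is a macrophage product and stood beside the macrophage list described with Mmp12. Bsg, an inducer of metalloproteinases at the cell surface, was at 522 ± 60.7 FPKM in controls and 476 ± 40.9 FPKM in cHET (SD, n = 4 each), and Sparc, a collagen-binding glycoprotein, at 457 ± 50.7 FPKM in controls and 449 ± 45.4 FPKM in cHET (SD, n = 4 each). The membrane-anchored ADAM proteases (7 of 11 tested) had 4 above and 3 below 0, with a median of 0.083 and no unadjusted p under 0.05: Adam9 was at 15.6 ± 3.92 FPKM in controls and 17.7 ± 2.92 FPKM in cHET (SD, n = 4 each), Adam10 at 16.6 ± 1.96 FPKM in controls and 16.3 ± 1.16 FPKM in cHET (SD, n = 4 each) and Adam22 at 1.09 ± 0.164 FPKM in controls and 1.26 ± 0.0635 FPKM in cHET (SD, n = 4 each).

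The collagen processing and cross-linking genes (19 of 22 tested) had 11 above and 8 below 0, with a median of 0.067. The 2 with an unadjusted p under 0.05 were higher in cHET: Pcolce, the enhancer of procollagen carboxy-terminal cleavage, at 41.3 ± 4.79 FPKM in controls and 50.8 ± 6.11 FPKM in cHET (SD, n = 4 each; log2 fold change 0.29, adjusted p = 0.524), and the transglutaminase Tgm2 at 50.8 ± 8.35 FPKM in controls and 66.9 ± 12.7 FPKM in cHET (SD, n = 4 each; log2 fold change 0.39, adjusted p = 0.550). The collagen chaperone Serpinh1 was at 328 ± 41.7 FPKM in controls and 356 ± 33.9 FPKM in cHET (SD, n = 4 each). The collagens themselves (13 of 14 tested) had 7 above and 6 below 0, with a median of 0.019 and no unadjusted p under 0.05. Col3a1 was at 200.1 ± 34.9 FPKM in controls and 179 ± 30.1 FPKM in cHET (SD, n = 4 each), Col4a1 at 158 ± 59.96 FPKM in controls and 177 ± 28.5 FPKM in cHET (SD, n = 4 each), Col1a2 at 80.4 ± 17.7 FPKM in controls and 69.5 ± 15.4 FPKM in cHET (SD, n = 4 each) and Col5a2 at 22.8 ± 3.02 FPKM in controls and 19.0 ± 3.01 FPKM in cHET (SD, n = 4 each). The proteoglycan and glycoprotein list (13 of 15 tested) had 8 above and 5 below 0, with a median of 0.079, and 3 unadjusted p under 0.05 of which 2 were higher in cHET. The basement membrane linker Nid2 was at 17.5 ± 5.34 FPKM in controls and 24.1 ± 2.89 FPKM in cHET (SD, n = 4 each; log2 fold change 0.48, adjusted p = 0.525), and the cartilage protein Comp at 2.85 ± 0.961 FPKM in controls and 1.61 ± 0.666 FPKM in cHET (SD, n = 4 each; log2 fold change -0.56, adjusted p = 0.539). The basement membrane proteoglycan Hspg2 was at 56.9 ± 15.9 FPKM in controls and 64.4 ± 9.61 FPKM in cHET (SD, n = 4 each) and the small proteoglycan Bgn at 56.4 ± 12.1 FPKM in controls and 51.4 ± 12.9 FPKM in cHET (SD, n = 4 each).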

How the data were processed

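RNA from 8 whole mouse hearts was sequenced after poly-A selection, per the labels' protocols. The authors deposited 1 table with an FPKM value per gene and library and the gene length (another column, in bases) they used. The tools named, without roles, are featureCounts 1.5.0-p3, HISAT2 2.0.5 and DESeq2 1.20.0, on build mm9, per the submitters' processing notes. The table's coordinates are those of GRCm38 (same start and end as GENCODE M21 for 53 of the 55 members). Whether counting used strand is not given in the sources used here, and 14 of the 31 tested members overlap another gene.

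Each library's FPKM times length came in steps of 1 read (100% of values whole within 0.05 reads), so reads were rebuilt. The FPKM totals the authors divided by were not all on 1 footing: they were 0.968 of the library's own sum in controls 1 and 2 and 0.994 to 1.04 in the others. Genes with a mean of at least 1 FPKM (13029) were compared between cHET and control on log2(FPKM + 1) by a trended, robust limma fit (version 3.58.1, R 4.3.3), two-sided, at a Benjamini-Hochberg adjusted p of 0.05 over all of them. On this scale fold changes of low genes are understated. The labels call the 4 hearts of a group biological replicates; p-values measure the spread between these libraries only. Single values used exact permutation tests. Alternatives changed the pseudocount, filter, scaling, test, weights, variance model, block, covariate and genes tested, or left out libraries; leaving out controls 1 and 2 together was chosen after seeing the data. The scripts were tested on simulated data. Tables and plots were made with Python 3.11.15, pandas 2.3.3, scipy 1.17.1 and matplotlib 3.10.9.

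The members and gene lists were chosen with earlier results of these data known. All members are named: those tested with every library's value, the others with means or counts. Of each matrix list, the 2 genes with the smallest p and the 2 with the highest mean are named. Further genes of these lists, such as Fbln5, Mfap4, Tnc, Thbs1 and P4ha3, are named for library patterns seen in the values. Promoter sequences are from RefSeq (GRCm38.p6).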

Additional observations from a re-analysis of the deposited data

Results flagged for a closer look

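In 5 of the 62 groups of 4 libraries examined (31 members, each in controls and in cHET; 8.06%), 1 library lay farther from the others than the 95% limit of Dixon's test allows, and chance alone gives about 1 group in 20. Of the 5, 3 concern control 2. Lox was 27.6 FPKM in control 2, where the nearest of the other controls was 12.7 FPKM. Mmp23 was 28.9 FPKM in control 2, with the nearest control at 16.6 FPKM. Adamts5 was 2.97 FPKM in control 2, with the nearest control at 2.57 FPKM, a small step in a gene whose other controls were nearly equal. In cHET 3, Mmp15 was 49.2 FPKM and the nearest cHET library 38.5 FPKM. Adamts3 was 2.10 FPKM in cHET 3, with the nearest cHET library at 1.78 FPKM. Beside Lox and Mmp23, control 2 also held the highest Eln (609 FPKM), Fbln5 (33.5 FPKM) and S100a8, a neutrophil gene (25.1 FPKM), and its Ucp1 (16.7 FPKM) was next to that of control 1 (17.8 FPKM). What part these have in the Lox and Mmp23 values was not tested.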

How the results depend on the processing

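The count of members past the test was 0 in all 21 alternatives, with a smallest adjusted p of 0.221 (Adamtsl5 with library weights). The count over all genes was 3; it was 11 with library weights (8 higher, 3 lower in cHET), 1 with the replicate block, and 2 to 4 otherwise (2 to 3 when 1 library was left out). Of 651 alternative fold changes of members, 592 kept their sign and 59, of 15 members, did not; none of these members was called either way, and the cause was not tested. The mean log2 difference of each family's sum between cHET and control moved by less than 1 SD of the replicates under TPM, without mtDNA-encoded genes and with 1 library left out; that of the Adamts sum (0.022) ran from -0.042 to 0.15 and that of the lysyl oxidases (-0.092) from -0.21 to 0.029, across 0.

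Rescaling to TPM moved the median of all genes to 0.10 (log2) and the members' split from 13 above and 18 below 0 to 19 and 12; scaling without mtDNA-encoded genes gave 18 and 13, and library weights gave 8 and 23. Log2 fold changes that turned sign were, with TPM, Timp2 0.058, Loxl1 0.047, Mmp14 0.096, Adamts5 0.046, Mmp28 0.054 and Adamts17 0.024; without mtDNA-encoded genes, Timp2 0.023, Loxl1 0.012, Mmp14 0.060, Adamts5 0.014 and Mmp28 0.0055; with library weights, Mmp15 -0.16, Loxl2 -0.048, Adamts1 -0.084, Adamts2 -0.075 and Adamts9 -0.050; with voom, Mmp14 0.021 and Mmp28 0.034; with quantile normalization, Adamts2 -0.0027; with sex as a covariate, Adamts2 -0.0013 and Loxl3 -0.017. Without controls 1 and 2 they were Mmp15 -0.29, Loxl2 -0.11, Mmp23 0.0083, Adamts1 -0.056, Adamts2 -0.13, Timp3 -0.11, Adamts9 -0.11, Adamts5 0.011 and Adamts4 -0.24. Leaving out 1 library at a time, values that turned sign in some of the 8 fits ranged over Timp2 -0.16 to 0.024, Mmp15 -0.11 to 0.19, Loxl1 -0.16 to 0.10, Mmp14 -0.13 to 0.11, Loxl2 -0.069 to 0.15, Adamts2 -0.13 to 0.19, Adamts9 -0.047 to 0.081, Loxl3 -0.098 to 0.10, Adamts5 -0.090 to 0.0081, Mmp28 -0.21 to 0.096 and Adamts17 -0.12 to 0.055.

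Whether the labels' replicate numbers pair the hearts was not settled. The correlations of same-numbered libraries' deviations were 0.286, 0.266, 0.052 and 0.057. Controls 1, 2 and 3 matched the cHET library of their own number best, while control 4 matched cHET 3 best. With the number as a block, 1 gene and 0 members were called. In that fit 3 members (9.68%) had an unadjusted p under 0.05, against 13.4% of all genes. Depth limits the 13 members under 0.1 FPKM, which had 0 to 66 reads in all libraries together.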
